A study of Homo sapiens with 16 samples.

Results

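The 16 arrays of this study carry the replicate numbers 1, 3, 4 and 5 in each of 4 transfection groups, and this account compares the 8 arrays numbered 1 or 3 with the 8 numbered 4 or 5, which is all 16 of the 16 arrays. The division uses the number at the end of each array's title. It was chosen by the measured log2 signals, in which numbers 4 and 5 lay together, so the difference between the sets is described here and not tested. All groups share the SAOS background, an established line from a human osteosarcoma whose own RB is not functional. The control arrays came from SAOS cells given no construct, the rb arrays from cells transiently transfected with human RB, the smyd arrays from cells transfected with mouse SMYD2 and the rb-smyd arrays from cells given both, with 4 arrays in each group. No group given an empty vector is named, and nothing in the labels says what a replicate number stands for, such as a culture, a transfection or a day. Signals are RMA log2 values, 1 probe set per gene, for 19775 genes, so a difference of 1 is a 2-fold change. The number of arrays limits the precision, and p-values cover only how far these arrays scatter, possibly for technical reasons, since separate cultures are not named.

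RB, the retinoblastoma protein, binds E2F transcription factors and holds down the genes that they drive, among them those for DNA replication and mitosis. SMYD2 is a lysine methyltransferase, and RB is among the proteins it is known to methylate. Osteosarcoma cells keep part of the osteoblast program: they make collagen-rich matrix, alkaline phosphatase and the secreted proteins of mineralising bone. Of 8 osteoblast markers 7 were measured here, and their mean signals over all arrays were high, RUNX2, the lineage's leading transcription factor, at 12.42 and SP7, which acts after it, at 10.03.

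The set of 1 and 3 was not uniform. After the 4 arrays of each number were averaged, numbers 4 and 5 differed by a root mean square of 0.0723 log2 over all genes, with 2 genes at least 0.5 apart. Numbers 1 and 3 differed from each other by 0.217, with 680 genes at least 0.5 apart, as far as 1 lay from 4 (0.218) and 5 (0.218), and further than 3 lay from 4 (0.182) and 5 (0.183). Without the smyd arrays the same distances were 0.202 between 1 and 3 and 0.0801 between 4 and 5. The set difference is thus the mean of 2 unlike numbers against 2 that nearly coincide. If a number marks a shared culture or extraction, the contrast rests on 2 numbers against 2.

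**Figure D1:**
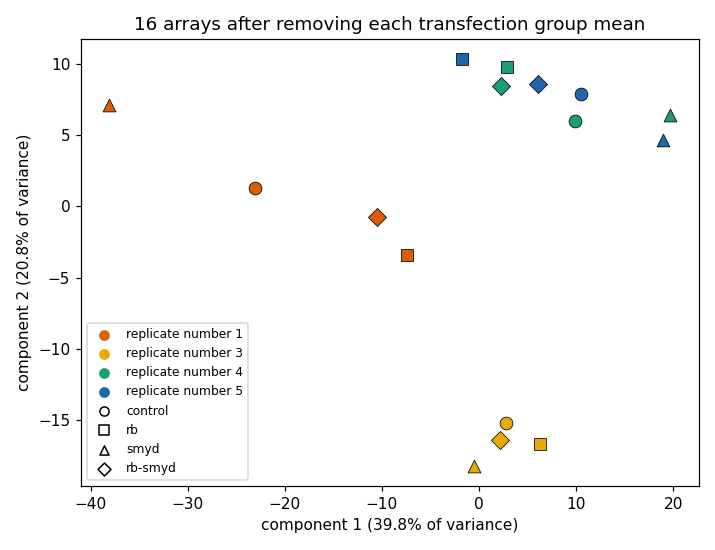
The first 2 principal components of the log2 values after the mean of each transfection group was removed, 1 point per array, coloured by replicate number and shaped by group. The arrays numbered 4 and 5 lie together, those numbered 3 lie together between -18.2 and -15.2 on component 2 (20.8% of variance), and those numbered 1 spread along component 1 (39.8%), furthest for smyd replicate 1 at -38.1.

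Control probe sets differed between the sets in their means, while their ranges overlapped. The difference between the 3-prime and 5-prime probe sets of ACTB, which grows when transcripts are shortened, was lowest at 0.54, had a median of 1.40 and was highest at 3.53 log2 in replicates 1 and 3, against 0.55, 0.72 and 1.07 in replicates 4 and 5. Its highest values were 3.53 in smyd replicate 1 and 2.46 in control replicate 1. It ran from 1.17 to 3.53 in number 1 and from 0.54 to 1.58 in number 3. The mean difference between sets was -0.85 with all arrays, -0.58 without smyd replicate 1 and -0.27 without number 1. The same measure of GAPDH differed by 0.03. Of the poly-A spikes, added to RNA before labelling, dap was higher in 4 and 5 by 0.84, thr by 0.62, phe by 0.24 and lys by 0.05, whereas the hybridisation spikes, added after labelling, differed by -0.06 to -0.19. The lowest signal of each poly-A spike was in smyd replicate 1. What part the controls had in the differences below was not tested.

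Replicates 4 and 5 differed from replicates 1 and 3 in 2282 of 19775 genes (11.5%) by limma's additive fit at an adjusted p under 0.05, 1113 of them higher (5.63%) and 1169 lower (5.91%) in 4 and 5. These counts describe the division that chose the arrays. In 380 genes (1.92%) the 8 and 8 arrays did not overlap, 158 of them higher (0.799%) and 222 lower (1.12%), and 374 (1.89%) were called as well. In 322 (1.63%) the sets differed by at least 0.5 log2. With the number as a block 3138 genes were called (15.9%), 1498 higher (7.58%) and 1640 lower (8.29%). That fit takes the gaps between 1 and 3 and between 4 and 5 out of the spread. Its count therefore does not allow for how far numbers vary within a set. Without smyd replicate 1 the count was 2585, and 2116 of the 2282 genes were among them. It was 219 without the arrays numbered 4 and 269 without those numbered 5, with 218 and 268 of the 2282 among them, against 2836 without number 1 and 3656 without number 3. Without number 4 or 5 the spread still holds the gap between 1 and 3. Without number 1 or 3 it holds the gap between 4 and 5 instead, so these counts are not on equal terms. The count was lowest for a single array at 1491, without smyd replicate 4. In 205 of the 2282 genes (8.98%) numbers 1 and 3 differed from each other by more than the sets did, which happened for 4 and 5 in 1 gene.

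The 12 genes with the largest higher signals in 4 and 5, among those without overlap, have varied functions. DKK1, a secreted antagonist of Wnt signalling that osteoblasts make, ran from 9.79 through a median of 10.65 to 11.12 in replicates 1 and 3 and from 11.19 through 12.05 to 12.67 in 4 and 5. The difference was 1.44 ± 0.17 log2 (SE), or 2.71-fold. As the sets did not overlap, they also stood apart in each of the 4 transfection groups. DLX2, a homeobox factor of craniofacial skeleton, ran from 8.04 through 8.58 to 8.90 against 9.45, 9.93 and 10.19, a difference of 1.30 ± 0.11. LHX8, a LIM homeobox factor, differed by 1.15 ± 0.19, with number 1 at a mean of 5.63, number 3 at 6.48 and numbers 4 and 5 at 7.22 and 7.19. NQO1, a quinone reductase that NRF2 induces, had a median of 9.97 against 11.04, a difference of 1.09 ± 0.13 (2.12-fold). MAP1B, a microtubule-associated protein, differed by 1.08 ± 0.12 and had an even difference, with number means of 7.18, 7.32, 8.32 and 8.33. The other members were PLCL1 (1.18), SOX18 (1.00), DDX11L2 (0.96), ZFHX4-AS1 (0.94), BRINP1 (0.94), COL14A1 (0.93) and STMN3 (0.92), all in log2 difference. SOX18, an endothelial transcription factor, and COL14A1, a fibril-associated collagen, lay lowest in number 3: without that number their differences were 0.70 and 0.56, and without number 1 they were 1.30 and 1.31. SOST, which encodes the Wnt antagonist sclerostin, was as high as DKK1 (1.40 ± 0.20) but its sets overlapped, from 5.15 to 6.11 in 1 and 3 and from 6.03 to 7.67 in 4 and 5.

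Of the 12 genes with the largest lower signals in 4 and 5, EPYC, GZMB, COL1A2 and TGFBI differed by the most. EPYC, a small proteoglycan of cartilage matrix, ran from 9.02 through 10.44 to 10.80 in replicates 1 and 3 and from 8.27 through 8.65 to 8.80 in 4 and 5, a difference of -1.71 ± 0.14 log2 (3.26-fold lower). Its lowest value in 1 and 3, in smyd replicate 1, lay near the range of 4 and 5, and without that array the difference was -1.85. GZMB, the gene of a protease best known from cytotoxic lymphocytes, differed by -1.56 ± 0.17, from a median of 7.86 to 6.63. COL1A2, a chain of type I collagen, had medians of 11.91 and 10.54, a difference of -1.42 ± 0.12 (2.68-fold lower), although the nearest arrays of the sets were at 11.21 on both sides. TGFBI, a matrix protein that TGF-beta induces, had medians of 10.76 and 9.46 (-1.35 ± 0.15), and number 3 stood higher (mean 11.17) than number 1 (10.42). PID1, an adaptor protein, and PTPRM, a receptor phosphatase of cell contacts, each differed by -1.07, and numbers 1 and 3 lay close together in mean signal (7.38 and 7.48 for PID1, 8.38 and 8.47 for PTPRM). ZNF91 (-1.13), WDR88 (-1.11), ZSCAN18 (-1.01), RIN2 (-0.96), LINGO2 (-0.94) and ELAVL2 (-0.91) completed the 12. For ZNF91 4 of 7 probe sets, for WDR88 1 of 2, for ZSCAN18 2 of 3 and for RIN2 1 of 2 had this sign, and the others did not. LINGO2, a membrane protein of neurons, differed by -0.54 without number 1 and by -1.35 without number 3.

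**Figure D2:**
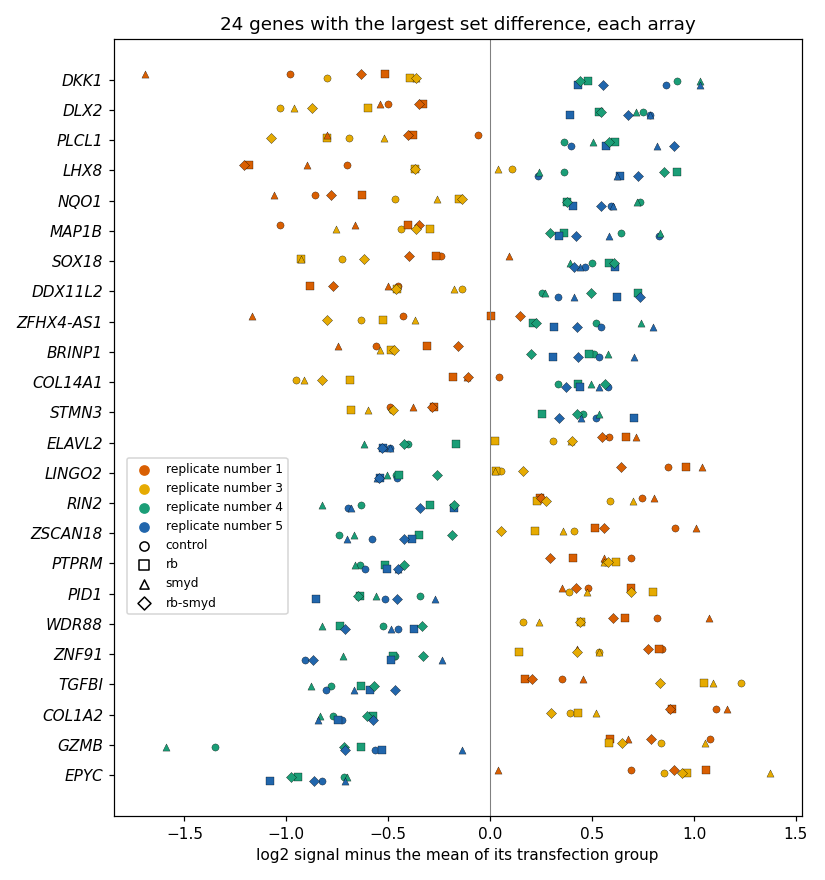
Each array's log2 signal minus the mean of its transfection group, for the 12 genes highest and the 12 lowest in replicates 4 and 5, coloured by replicate number and shaped by group. The genes were named for sets without overlap, so numbers 4 and 5 lie to one side in every gene shown. Numbers 1 and 3 are often apart from each other, as in LHX8, SOX18, COL14A1 and LINGO2.

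Chaperone genes were the list with the highest median. Of the 28 genes of a list of heat shock proteins and chaperones, 24 were measured; 14 were called higher (5.63% over all genes) and 2 lower (5.91%), 5 did not overlap (1.92%), and the list's median difference was 0.19 log2, against -0.00 over all genes. It was 0.18 against number 1 and 0.19 against number 3, so numbers 1 and 3 agreed, and 0.19 without smyd replicate 1. DNAJB4, a co-chaperone of HSP70, differed by 0.61 ± 0.10, CHORDC1, a co-chaperone of HSP90, by 0.47 ± 0.10, and STIP1, which joins HSP70 to HSP90, by 0.45 ± 0.07. HSP90AB1, an HSP90 itself, ran from 13.39 to 13.66 in 1 and 3 and from 13.66 to 13.93 in 4 and 5 (0.28 ± 0.05). Subunits of the chaperonin that folds actin and tubulin differed alike, CCT3 by 0.34 and CCT4 by 0.41. The 2 lower members were HSPB1, a small heat shock protein (-0.40), and SERPINH1 (-0.62 ± 0.08), the collagen chaperone of the endoplasmic reticulum, which ran from 7.87 to 8.27 in 1 and 3 and from 6.98 to 7.70 in 4 and 5. HSF1, the factor that switches these genes on, differed by -0.02.

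The promoters of CHORDC1 and SERPINH1, members of 1 list with opposite differences, are shown because both hold runs of the heat shock element, alternating GAA and TTC units. The sequences are the 250 bases before each gene's start from RefSeq's GRCh38.p14 promoter table, CHORDC1 at chr11:90223050-90223299 on the minus strand and SERPINH1 at chr11:75562003-75562252 on the plus strand, written 5′ to 3′ along the gene, and capitals mark matches to GAANNTTC or TTCNNGAA.
CHORDC1: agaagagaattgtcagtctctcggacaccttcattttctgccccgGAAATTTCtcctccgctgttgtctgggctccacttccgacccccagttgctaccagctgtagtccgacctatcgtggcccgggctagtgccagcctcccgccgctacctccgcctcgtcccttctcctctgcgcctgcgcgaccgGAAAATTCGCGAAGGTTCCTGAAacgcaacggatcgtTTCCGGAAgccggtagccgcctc
SERPINH1: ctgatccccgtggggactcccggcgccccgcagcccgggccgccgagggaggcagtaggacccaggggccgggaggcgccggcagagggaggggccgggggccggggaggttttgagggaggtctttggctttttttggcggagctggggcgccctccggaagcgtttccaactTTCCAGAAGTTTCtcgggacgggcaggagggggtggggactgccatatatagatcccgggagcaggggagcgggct
CHORDC1 held 6 matches and SERPINH1 held 2, counting matches that overlap, and each motif reads the same on both strands. In the table's windows of 300 bases, which add the 50 after the start, either motif was in 7 of the 21 promoters of the list that the table held (33.3%), in 3 of the 13 whose genes were called higher in 4 and 5 (23.1%) and in 3738 of all 27305 (13.7%). Runs of 3 alternating units were in 4 of the 21, in 2 of the 13 and in 0.487% of all. DNAJB4 and STIP1 held no match in these windows. A match is a description of letters and not of binding.

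In the list of NRF2 targets, the genes of the oxidative stress response, 8 of 23 were called higher and 1 lower (median 0.10; 5.63% higher and 5.91% lower over all genes), led by NQO1 and by PIR (0.53), ME1 (0.44), the malic enzyme, and GCLC (0.37), of glutathione synthesis; HMOX1, heme oxygenase, was the lower one (-0.36). The median was 0.18 against number 1 and 0.05 against number 3. In the list of the unfolded protein response, 5 of 27 were called higher and 1 lower, against the same background (median 0.11, or 0.12 against number 1 and 0.06 against number 3), with DNAJB9 at 0.41 and the disulfide isomerases PDIA3 and PDIA4 at 0.28 and 0.27, against MANF at -0.26. GCLM, the partner of GCLC, differed by 0.41 ± 0.16 and was not called.

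More matrix genes were called lower than higher in 4 and 5, and most were not called. Of 40 genes of matrix glycoproteins and remodelling enzymes, 9 were called lower (5.91% over all genes) and 1 higher (5.63% over all genes), with a median of -0.10 and 11 positive differences. These shares over all genes are the background for the other lists of this paragraph too. Besides TGFBI and SERPINH1, DCN, the collagen-binding proteoglycan decorin, ran from 6.71 to 7.36 and from 6.35 to 6.69 (-0.63 ± 0.08), ADAMTS5, an aggrecanase, differed by -0.54 and SPARC, a collagen-binding protein of bone, by -0.40. ECM1 was the higher one (0.50). Of 17 collagen genes (median -0.04) 4 were called lower and 0 higher: COL1A2, COL11A1 (-0.79 ± 0.05), a fibrillar collagen of cartilage and bone, COL6A3 (-0.42) and COL1A1 (-0.20). COL11A1 ran from 12.36 to 12.70 in 1 and 3 and from 11.40 to 12.17 in 4 and 5, with number means of 12.48, 12.50, 11.73 and 11.68, so numbers 1 and 3 agreed. Replication-dependent histones had a median of -0.13 over 20 measured of 28, with 6 called lower, H2BC4 (-0.70), H1-2 (-0.56), H4C8 (-0.46) and H2BC9 (-0.40) by the most, and 0 higher. Of 29 immediate early genes, which serum and growth factors switch on within minutes, 8 were called lower and 1 higher, EGR1 from 7.27 to 8.57 against 6.73 to 7.22 (-0.82 ± 0.16), IER3 at -0.74, JUN at -0.57 and FOS at -0.51. Among the few measured host genes of small nucleolar RNAs, 5 of 15, SNHG32 (-0.48) and EPB41L4A-AS1 (-0.38) were lower, while MALAT1 (-0.21) and GAS5 (-0.17) were not called.

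In other lists the difference was unlike against numbers 1 and 3. The background for the counts of this paragraph is 5.63% called higher and 5.91% called lower over all genes. TGF-beta targets had a median of -0.11 over 25 genes (1 called higher, 5 lower), which split into 0.06 against number 1 and -0.39 against number 3. The median of 21 actin cytoskeleton genes, -0.16 (2 higher, 3 lower), split into 0.06 and -0.28. For both lists leaving out number 3 therefore turned the sign. CNN1 and TAGLN, smooth muscle proteins that bind actin, had means of 6.70 and 8.91 in number 1, 8.67 and 10.65 in number 3, and 6.83 and 9.03 in number 4. TPM2, a tropomyosin, was in contrast lower in 4 and 5 against both numbers (-0.91 ± 0.09, from 11.28 to 12.03 against 10.53 to 11.05), as were PMEPA1, an inhibitor of TGF-beta signalling (-0.75), and MYL9, a myosin light chain (-0.50). Glycolysis genes had medians of 0.23 against number 1 and -0.08 against number 3 (all 21 genes: 0.07, with 2 higher and 0 lower). Hypoxia-induced genes had 0.11 and -0.22.

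**Figure D3:**
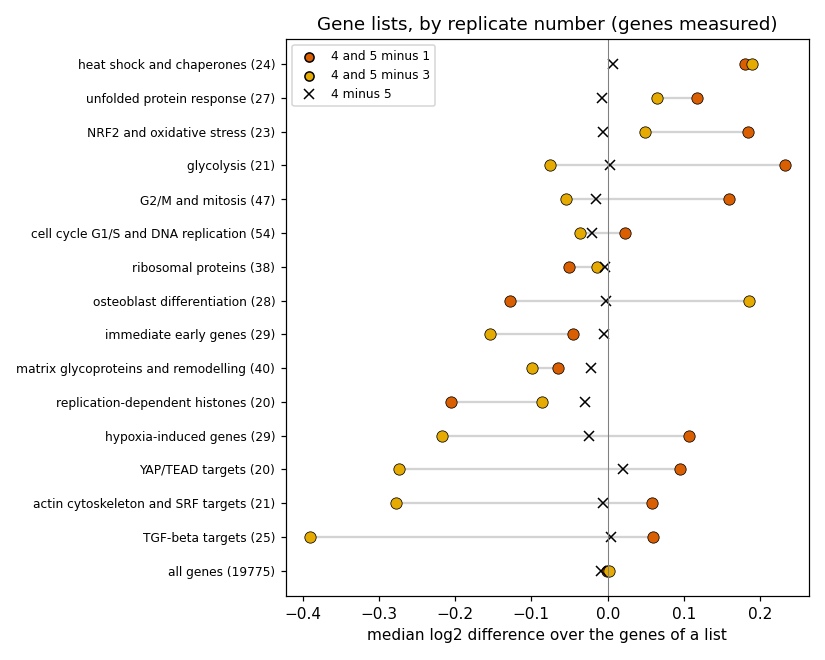
Median log2 difference over the measured genes of 15 lists and of all genes, for numbers 4 and 5 together minus number 1, for the same minus number 3, and for number 4 minus number 5. Heat shock genes lie at 0.18 and 0.19 against numbers 1 and 3 alike, TGF-beta targets at 0.06 and -0.39, and the differences between 4 and 5 stay near 0.

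The genes in which numbers 1 and 3 differed most from each other are of several kinds. The 8 genes furthest below number 3 in number 1 were PLAC8 (-2.55 log2), CD44 (-2.11), CNN1 (-1.98), THBS1 (-1.96), CXCL13 (-1.85), TAGLN (-1.74), ARHGAP29 (-1.73) and GPR183 (-1.67). CD44, the hyaluronan receptor, ran from 5.83 to 7.71 in number 1, from 8.71 to 9.11 in number 3 and from 7.27 to 8.16 in 4 and 5, so that its set difference was only -0.08. CXCL13, a chemokine of B cells, ran from 7.42 to 8.19 in number 1 against 9.39 to 9.81 and 9.73 to 10.41. Furthest above were MAP2 (2.18), HEY1 (1.90), TOX2 (1.76), PLAAT3 (1.55), ADRB1 (1.52), ANO5 (1.52), PTH1R (1.51) and IBSP (1.51). IBSP, the bone sialoprotein, ran from 11.53 to 11.82 in number 3, and no other number came that low (13.05 to 13.26 in number 1, 12.52 to 13.27 in 4 and 5). PTH1R, the receptor of parathyroid hormone, was the reverse case, from 9.70 to 10.51 in number 1 and within 7.88 to 9.11 elsewhere. These genes were named for this difference, which is a description.

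The osteoblast list as a whole had a median set difference of 0.02 over 28 genes, with 4 called higher (SOST, DKK1, ANKH at 0.39 and BMP4 at 0.34) and 2 lower (FGFR2 at -0.42 and TWIST1 at -0.34). Its median was -0.13 against number 1 and 0.19 against number 3. RUNX2 differed by 0.03 ± 0.06 between the sets. Ribosomal protein genes had a median of -0.04 over 38 genes, with 2 called in each direction. Of the 38, 32 had a negative difference (10038 of 19775 over all genes). In 4 of the 38 the sets did not overlap (1.92% over all genes). Among them were RPL14 (-0.21) and RPS19 (0.13), on differences far smaller than those above. Lysosome genes had a median of 0.06, with 2 of 30 higher, cholesterol synthesis genes 0.06, with 2 higher and 2 lower of 19, and glucocorticoid targets -0.13, with 1 higher and 2 lower of 13. Over all genes 5.63% were called higher and 5.91% lower, and the shares called in the lysosome and ribosomal lists were near these. Of the lists of other cell types, epithelial, blood, endothelial, muscle, fat and cartilage, and neural genes together had 1 gene called higher, TUBB3 (0.23), and 2 lower, HBB (-0.17) and LPL (-0.22). Their median differences lay between -0.06 and 0.05, and the mean signals of the lists overlapped between the sets, as in blood genes (5.55 to 5.67 against 5.57 to 5.66) and endothelial genes (4.76 to 5.02 against 4.87 to 4.96). In such bulk samples, fewer cells of a type and less RNA per cell cannot be told apart.

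In both cell cycle lists the transfection group took more of the sum of squares than the set. The G2/M and mitosis list, 47 of 47 measured, had a median set difference of 0.04 (0.16 against number 1 and -0.05 against number 3), with 2 called higher and 2 lower, and a median over its genes of 0.68% of the sum of squares for the set against 87.8% for the transfection group. The G1/S and DNA replication list, 54 of 55 measured, had 2.97% and 82.9%, and its median set difference was 0.00, with 4 higher and 7 lower (20.4% called, against 11.5% of all genes), MCM10 at 0.54 and MCM5 at -0.51 by the most. Both medians of these lists changed sign without smyd replicate 1 (-0.02 and -0.02). The heat shock list had 44.7% for the set and 10.2% for the group. Over all genes the medians were 7.07% for the set, 10.1% for the numbers within the sets, 21.8% for the group and 44.3% for the rest. The set took more than the group in 5525 genes (27.9%). The set has 1 degree of freedom, the numbers within the sets 2, the group 3 and the rest more than these. A part with more degrees of freedom takes a larger share from scatter alone, so these shares over all genes do not compare like with like. The genes most confined to the constructs were TACC3, TIMELESS, NUSAP1, CDC25B and CKS2, spindle, replication and cyclin-dependent kinase genes, each with at least 97.0% for the group and a set difference between -0.07 and 0.01.

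The difference made by RB itself was tested against the sets, a contrast separate from the set difference. The division was chosen because numbers 4 and 5 lay together, which also covers their differences made by RB and SMYD2. The p-values of both interactions are thus not independent of that choice. RB1 was examined first as the check of the labels. Its dimmer probe set lay near background, between 3.33 and 3.58 in every array, with or without RB. The values given here are those of its brighter probe set alone. In the arrays with RB its signal was 7.40 and 7.43 in rb replicates 1 and 3 and 7.90 and 7.90 in rb-smyd replicates 1 and 3, against 8.10 and 7.87 in rb replicates 4 and 5 and 9.25 and 9.62 in rb-smyd replicates 4 and 5. Every array with RB exceeded every array without it, but rb replicate 5 lay no higher than the rb-smyd arrays numbered 1 and 3. The RB arrays exceeded those without RB by 1.11 log2 in replicates 1 and 3 and by 1.93 in 4 and 5, a difference of 0.83 ± 0.19 with an adjusted p of 0.0699 in limma's fit of all genes and 0.00911 with the replicate number as a block. Its part in the next results was not tested. The 3-prime minus 5-prime difference of ACTB was also uneven between arrays with and without RB in number 1. It was 2.46 and 3.53 in control and smyd, against 1.63 and 1.17 in rb and rb-smyd. In number 3 it was 0.54 and 1.58 against 0.82 and 1.22, and in 4 and 5 all arrays lay between 0.55 and 1.07. What part this had in the difference made by RB in 1 and 3 was not tested. The human probe sets of SMYD2 need not read the mouse transcript, so its flat signal (9.86 to 10.36) does not check the smyd label.

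The difference made by RB depended on the set in 88 of 19775 genes (0.445%) at an adjusted p under 0.05, and in 75 of these (0.379%) it was more positive in 4 and 5. In all 75 the difference made by RB was positive in 4 and 5; in 33 it was positive in 1 and 3 too, and in 42 negative. In the 13 others (0.0657%) the value was negative in 4 and 5, and in 7 of them it was positive in 1 and 3. Arrays of the same number deviated together, but in values that still held the set difference. With the number as a block, the paired fit, 2094 genes were called (10.6%), 1313 higher (6.64%) and 781 lower (3.95%). Both fits count the rb and rb-smyd arrays of a number as separate replicates of the difference made by RB. If a number marks a shared culture, this contrast too rests on numbers 1 and 3 against 4 and 5. The unpaired fit takes its spread only from gaps between arrays of the same group and set. Leaving out an array leaves its partner alone, and their gap no longer enters the spread. Leaving out a number keeps only the gaps between 4 and 5, or only those between 1 and 3. The next counts depend on which gaps remain, so they are not on equal terms. Without the block single arrays moved the count: it was 2836 without smyd replicate 3 and 15 without control replicate 4 or without rb-smyd replicate 4. It was 0 without the arrays numbered 4 (1201 genes at an unadjusted p under 0.05) and 0 without those numbered 5 (1020), against 2029 without number 1 and 5505 without number 3.

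The 8 largest of the more positive differences in 4 and 5 began with IGFBP5 and EGFR. IGFBP5, a secreted binding protein of insulin-like growth factors that bone stores, was at 8.49, 8.55, 8.53 and 8.58 in the control and smyd arrays numbered 4 and 5 and at 10.29, 10.42, 10.36 and 10.33 in the RB arrays of those numbers. In numbers 1 and 3 the arrays without RB were at 9.21 to 10.32 and those with RB at 9.07 to 10.27, so that the groups overlapped there. RB made a difference of 1.81 ± 0.25 in 4 and 5 and 0.04 ± 0.25 in 1 and 3, which differed by 1.77 ± 0.35 (limma, adjusted p = 0.0491). EGFR, the epidermal growth factor receptor, turned its sign, from -1.02 ± 0.21 in 1 and 3 to 0.75 ± 0.21 in 4 and 5, a difference of 1.77 ± 0.30 (limma, adjusted p = 0.0237). SCARA5, a ferritin receptor, was higher with RB in either set, by 0.65 and by 2.11, which differed by 1.46 ± 0.20 (limma, adjusted p = 0.00687). NTN1, a netrin, went from -0.49 to 0.78, HTRA1, a secreted serine protease, from 0.38 to 1.59, PDGFRB, the receptor of platelet-derived growth factor, from -0.67 to 0.54, KANK4 from -0.09 to 1.11 and MXRA8, a matrix-remodelling-associated membrane protein, from 0.19 to 1.52. Of the 16 genes 9 were no longer called, among them EGFR, IGFBP5, MXRA8 and NTN1, when all probe sets of a gene were averaged (differences of 0.43, 0.88, 0.63 and 0.48). NTN1, HTRA1 and SCARA5 were called without any one array; the other 13 of the 16 genes lost the call in 4 (KANK4) to 14 (DCK) of the 16 such fits, IGFBP5 in 13.

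**Figure D4:**
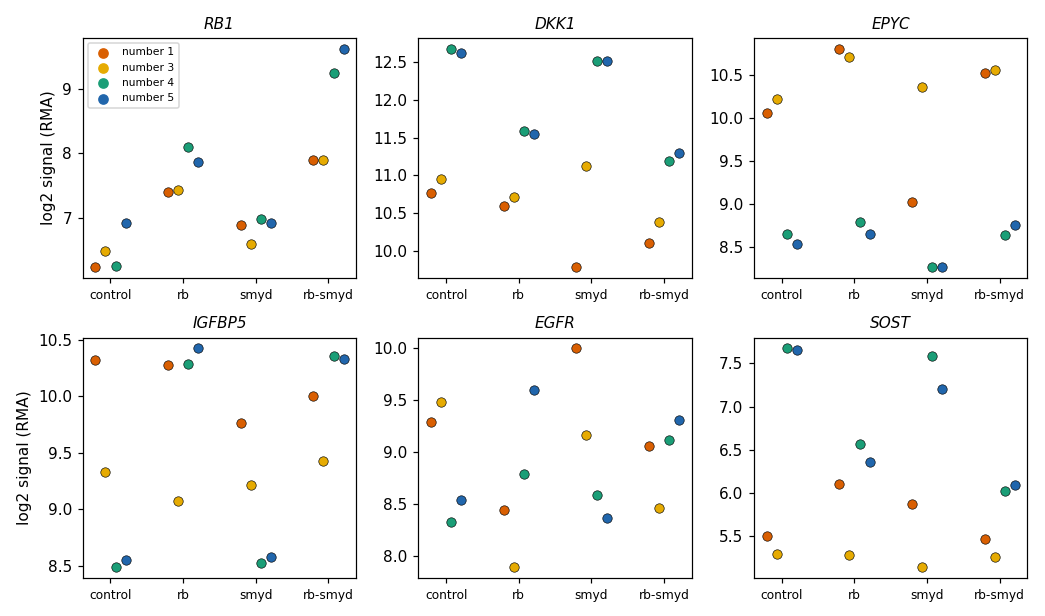
Log2 signal of 6 genes in every array, by transfection group and coloured by replicate number. DKK1 and SOST are higher in 4 and 5, most in the arrays without RB; EPYC is lower in 4 and 5; IGFBP5 is higher with RB in 4 and 5, where the arrays without RB are lowest.

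In the opposite direction, SOST had the largest interaction. Its signal was 7.67 and 7.65 in the control arrays numbered 4 and 5 and 7.58 and 7.21 in the smyd arrays, against 6.57, 6.36, 6.03 and 6.10 in those with RB, and 5.15 to 6.11 in every array numbered 1 or 3. RB thus made a difference of -1.26 in 4 and 5 and 0.07 in 1 and 3 (-1.34 ± 0.25; limma, adjusted p = 0.0411), a call lost in 12 of the 16 fits without 1 array. RND3 went from 0.43 to -0.46, MIR100HG, a host transcript of microRNAs, from 0.70 to -0.13, KHDC4 from 0.14 to -0.53 and NDNF, a secreted neuronal factor, from 0.20 to -0.47. In FIRRM (-0.44 to -1.18), a gene of DNA crosslink repair, ACAT2 (-0.14 to -0.81), of cholesterol metabolism, and DCK (-0.16 to -0.78), deoxycytidine kinase, the difference was negative in either set and more so in 4 and 5. Among the other called genes were E2F7, a repressor of the E2F family (-0.54 to -1.15), SPAG5, a spindle protein (-0.68 to -1.17), and CHORDC1, whose promoter is shown above (0.12 to -0.49).

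The cell cycle lists had a more negative median difference made by RB in 4 and 5, though nearly all their calls need the paired fit. Genes named in this and the next paragraphs from the paired fit were chosen after their values were seen. Counts from that fit carry the limit given above, that arrays of the same number count as separate replicates. All 47 G2/M genes and 53 of 54 G1/S genes were lower with RB in the fit with the set as a factor, in which RB changed 3351 genes (16.9%), 1695 higher (8.57%) and 1656 lower (8.37%). Over the G2/M genes the median difference made by RB was -0.61 in number 1, -0.66 in number 3, -1.03 in number 4 and -1.02 in number 5. Over the G1/S genes it was -0.49, -0.51, -0.74 and -0.70, and over 21 genes of recombination and Fanconi repair it was -0.44, -0.38, -0.79 and -0.67, while over all genes it was between -0.03 and 0.02. Under the paired fit 29 of 47 G2/M genes (background 3.95% lower), 19 of 54 G1/S genes and 9 of 21 repair genes were called, all in this direction. Without the block 0 G2/M genes, 1 G1/S gene (E2F7) and 0 repair genes were called. ANLN, which builds the cleavage furrow, went from -0.31 to -1.09, CDK1, the kinase that starts mitosis, from -0.24 to -0.96 and CDC6, which licenses replication origins, from -0.26 to -1.11. In CDK1 and CDC6 numbers 1 and 3 differed, at -0.03 and -0.46 and at -0.06 and -0.46. FOXM1, which drives mitotic genes, went from -0.79 to -1.13.

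In the collagen, matrix and lysosome lists more genes had a positive interaction than a negative one among those called. Of the 17 collagen genes 4 were called higher in the unpaired fit, COL6A2 (0.28 to 1.46), COL27A1 (0.08 to 0.94), COL6A1 (0.41 to 0.97) and COL5A1 (0.31 to 0.83), and 0 lower. Under the paired fit 7 were higher (6.64% over all genes), COL3A1 among them (-0.17 to 1.20), and 2 lower (3.95%), COL12A1 (1.18 to 0.50) and COL5A2 (0.36 to -0.04). Of the matrix genes the matrix metalloproteinases MMP2 (0.11 to 0.78) and MMP14 (0.05 to 0.86) were called in the unpaired fit and 14 of 40 under the paired fit, with 3 lower, of which THBS1, thrombospondin 1, by the most (1.63 to 0.09). Of 30 lysosome and autophagy genes 10 were called higher under the paired fit (background 6.64%) and 0 lower, and CTSB, a cathepsin (0.15 to 0.79), and NPC2, which carries cholesterol (-0.22 to 0.48), also in the unpaired one.

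TGFB1, the ligand, had a negative difference in 1 and 3 and a positive one in 4 and 5 (-0.52 to 0.59; limma, adjusted p = 0.00235), and PMEPA1 likewise (-0.28 to 0.59). Of 25 genes on the list, these 2 were called in the unpaired fit. Under the paired fit 4 were higher (6.64% over all genes), with TGFBI and MYL9 as the others, and 12 lower (3.95%). The lower ones were CCN2, a matricellular protein (0.62 to -0.42), TAGLN (0.88 to -0.19), ACTA2, smooth muscle actin (0.93 to -0.04), CNN1 (0.44 to -0.81), ID1, an inhibitor of differentiation that BMP induces (0.13 to -0.89), and 7 others. Targets of YAP and TEAD shared CCN2 and CCN1 with that list, and 9 of 20 were called lower under the paired fit and 1 higher, against 3.95% and 6.64% over all genes, and 0 of 20 without the block. Among the lower ones AXL, a receptor kinase, went from 0.23 to -0.83. Of the heat shock genes 10 of 24 were called lower under the paired fit (3.95% over all genes) and 0 higher, but 1, CHORDC1, without the block, with CCT4 going from 0.32 to -0.13 and HSPH1 from 0.19 to -0.21. Of 28 osteoblast genes 8 were called higher (6.64% over all genes) and 4 lower (3.95%) under the paired fit, and 1 each way, SOST the lower, without the block. DKK1 went from -0.21 to -1.17, PTH1R from 0.21 to 1.11 and ALPL, alkaline phosphatase, from 0.02 to 0.56.

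**Figure D5:**
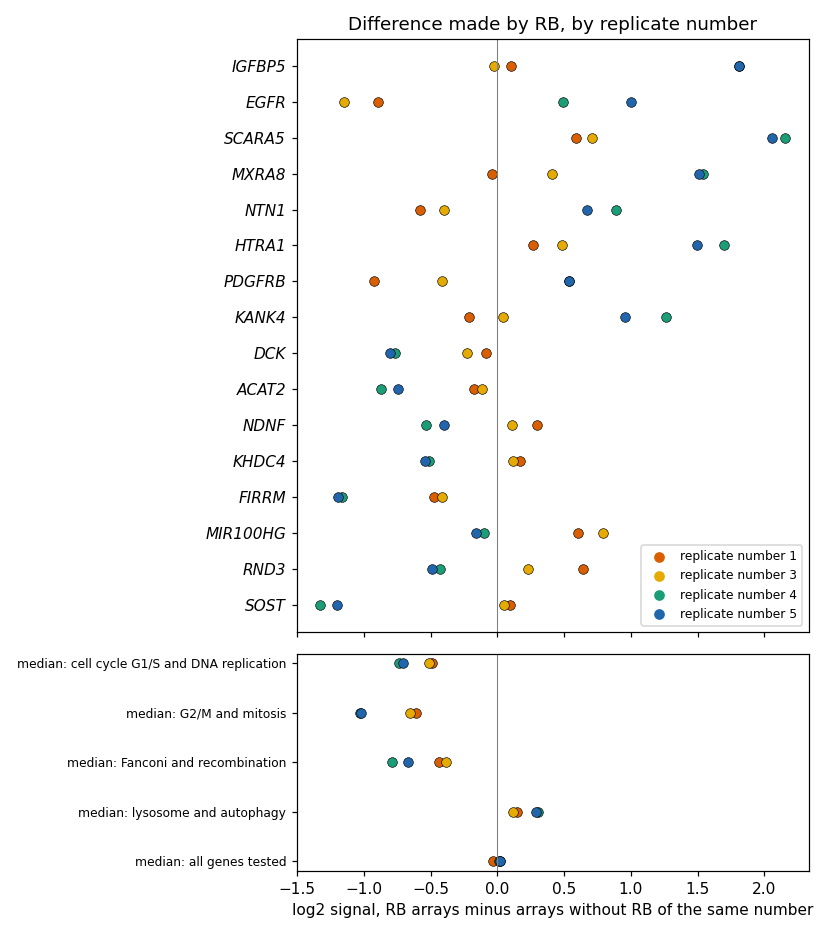
Mean log2 signal of the arrays with RB minus that of the arrays without RB of the same replicate number, for the 16 genes with the largest interactions and, below, as medians over gene lists and all genes. In the list medians numbers 1 and 3 lie close together and apart from 4 and 5, as in G2/M genes (-0.61 and -0.66 against -1.03 and -1.02). Over all genes the 4 medians lie between -0.03 and 0.02, without that division. The 16 genes were named for a called interaction, so a gap between the sets in them follows from that choice.

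The difference made by SMYD2 did not depend on the set in any gene at an adjusted p under 0.05 (limma, 0 of 19775, 0%; 1575 genes at an unadjusted p under 0.05), in the paired fit too (0; 2724). The smallest p-values belonged to TRAPPC13, DR1, CTNNB1, TSC22D1-AS1 and NFYA, with limma's adjusted p at 0.611. CTNNB1, which encodes beta-catenin, went from -0.24 to 0.06 and NFYA, a CCAAT-binding factor, from -0.46 to 0.11. The count was 285 without smyd replicate 3, 534 without the arrays numbered 1 and 2182 without those numbered 3. As for RB, those fits take their spread only from the gaps that remain. With the set as a factor SMYD2 changed 0 genes (0%; 1130 unadjusted). For RB, 3351 genes passed with that factor and 2517 without it.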

How the data were processed

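Total RNA of 16 samples was hybridised to 1 array design (Human Genome U133 Plus 2.0). The authors' deposited values are log2 signals made with RMA, per the submitters' processing notes, without a version. The sources used here do not state if the arrays were normalized jointly. Of 54675 probe sets 41097 carried 1 symbol, 1801 several and 11777 none, and 41043 matched RefSeq. The probe set with the highest mean over 16 arrays stood for a gene, which left 19775.

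limma 3.58.1 in R 4.3.3 (lmFit, eBayes with a trend, two-sided, Benjamini-Hochberg over all genes, threshold 0.05) fitted group plus set, or 8 group-by-set means for the interactions. Tests were checked on simulated data. The members and lists were chosen with earlier results of these data known. Named were the 12 largest set differences each way among called genes without overlap, 4 members of each list discussed, 8 interactions each way (or the 5 smallest p), RB1, SMYD2 and 5 genes with the largest group share. The lists discussed were the 6 with the highest and the 6 with the lowest medians, both cell cycle lists, histones, osteoblast, ribosomal proteins and other cell types. The collagen, immediate early and hypoxia lists, and those discussed for the interaction only, were chosen after their values were seen. Other genes were chosen after their values were seen.

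Replicate numbers were taken to pair the arrays for RB, because the deviations of RB arrays and arrays without RB correlated within every number (r = 0.458, 0.560, 0.299 and 0.266 over genes, 1 mean per number and arm). Between single groups 1 of 24 pairs fell below 0.1 (rb and smyd, number 5, -0.0772). All these deviations were from each group's mean over all numbers, so they held the set difference and do not show pairing within a set. With group and set in the fit, the random block gave a correlation of 0.0463 between arrays of a number. Alternatives were other scalings, probe summaries, signal minimums of 5 and 7, weights, blocks and left-out arrays or numbers. The block without smyd replicate 1, the list medians without a number and the alternatives for the controls and shares were chosen after seeing the data.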

Additional observations from a re-analysis of the deposited data

Results flagged for a closer look

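The difference made by RB itself differed between the sets, by limma's interaction test, in 8 named genes with a higher value in replicates 4 and 5. The differences were 1.77 for IGFBP5, 1.77 for EGFR, 1.46 for SCARA5, 1.34 for MXRA8, 1.27 for NTN1, 1.22 for HTRA1, 1.20 for PDGFRB and 1.19 for KANK4, in log2. In 8 others the value was lower in 4 and 5: -1.34 for SOST, -0.89 for RND3, -0.83 for MIR100HG, -0.73 for FIRRM, -0.67 for KHDC4, -0.67 for NDNF, -0.66 for ACAT2 and -0.63 for DCK. All 16 had adjusted p-values between 0.00107 (HTRA1) and 0.0491 (IGFBP5 and DCK).

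In the rb group, replicate 3 of IGFBP5 stood apart from the other 3 arrays at 9.07, against 10.27 to 10.42. It was the only such array in 176 groups of 4 that were examined. Chance alone gives such a gap in about 1 in 20 groups of 4 alike values. The groups here mix the sets, and many of the genes were named for a gap between the sets, so that rate does not apply to them.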

How the results depend on the processing

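The set difference was called in 2282 genes, in 1491 to 2601 without a single array and in 219 to 3656 without a single number. Genes whose RB difference depended on the set numbered 88, against 38 with the mean of a gene's probe sets, 156 and 340 with a mean signal of at least 5 and 7, 448 with array weights, 15 to 2836 without a single array and 0 to 5505 without a single number. With the replicate block, the paired fit, they numbered 2094, with the number as a random block 655, and without smyd replicate 1 with the block 1891. For SMYD2 by set the count was 0, with 0 to 285 without a single array, 0 to 2182 without a single number and 0 under the block. The RB difference itself was called in 3351 genes, in 5696 with array weights, in 2716 to 4015 without a single array and in 1316 to 4769 without a single number. That of SMYD2 was called in 0, and in 1 with the mean of probe sets. The median share of the sum of squares for the set was 7.07%, and 11.95% at a mean signal of at least 7. The ACTB difference of -0.85 ranged from -1.01 to -0.58 without a single array and from -1.43 to -0.27 without a single number. Interaction counts without an array or a number carry the limit given above, that their spread comes only from the gaps that remain. What else moved these values was not tested. Of 711 values of the 24 set genes under alternatives, 689 moved by less than the spread between arrays and 0 changed sign. These genes were named for sets that do not overlap, so leaving out arrays or numbers could not change their sign. Of 507 values of 17 genes by RB and set, 166 lost the call, 8 gained it and 0 changed sign. Of 239 list medians, 21 moved. The minimum of 7 left no member in the endothelial list. Signals near background limit the low genes.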
